A study of Arabidopsis thaliana with 4 samples.

Results

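The temperature dependence of the response to R:FR, which stands for red over far-red light, was described as an interaction, the log2 response to low R:FR at 16 °C minus that at 22 °C, where each response is log2 of the signal in low over that in high R:FR. A value of 1 means that the ratio of low to high R:FR was 2-fold larger at 16 than at 22 °C, and -1 that it was 2-fold smaller. Signals below 14.5 were set to that floor, and probe sets counted as measured where the mean log2 signal of the 4 arrays reached that of a signal of 23.2. Of the 22810 probe sets on the array 22746 were no controls and 13643 were measured. Of these, 104 lay in the block of neighbouring identifiers that the array uses mainly for organelle-encoded transcripts, and 13539 lay outside it.

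The arrays were of Arabidopsis thaliana seedlings of the accession La-er, with 1 array for each of 4 conditions. The seedlings came from low R:FR at 16 °C, high R:FR at 16 °C, low R:FR at 22 °C and high R:FR at 22 °C. All carried a mutation of PHYA, which encodes phytochrome A, the photoreceptor of far-red light, and which the labels give as phyA-2 on 3 arrays and as phyA on the 16 °C low R:FR array. All were 5 days old and had been raised on soil under white light (100 micromoles of photons per square metre each second) with an R:FR of 4.4. Those of low R:FR spent their last 24 h at an R:FR of 0.1. The tissue was cotyledon with a short piece of hypocotyl, no condition had a wild type array, and the number of plants or cultures behind an array is not stated in the labels. On every array the trimmed mean of the signals was about 100.01.

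Far-red light is reflected by neighbouring leaves, and plants read a low R:FR through phytochromes, mainly phytochrome B, as a sign of shade. The known responses are auxin synthesis, cell elongation and, at cool temperature, induction of the CBF pathway, whose transcription factors bind the promoters of cold-regulated (COR) genes and raise freezing tolerance. The question of the design was which transcripts answer low R:FR differently at the lower and the higher temperature.

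With 1 array per condition the interaction uses all 4 arrays and leaves nothing to estimate an error from, so no value below has a test, a standard error or a p-value, and precision is limited by having 4 arrays. A size of 1 is a rule of size. The scales of error at hand cover single steps only. For the hybridization spike controls (18 probe sets, signals of 34.5 to 3280) the SD of the interaction was 0.36, and its size reached 1.14. Over 61 genes with several measured probe sets outside the block, the SD between probe sets of one gene was 0.45. Neither covers plants, RNA extraction or labelling. In whole tissue, fewer cells of a type and less RNA per cell cannot be told apart, and at a fixed age a difference in growth stage cannot be told apart from temperature.

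Outside the organelle block the interaction was centred on 0, with a median of 0.00 and an SD of 0.54, and its middle 50% lay between -0.30 and 0.26. It was at least 1 for 294 probe sets, 2.17% of those measured, and at most -1 for 560, 4.14%. Inside the block it was at least 1 for 21 of 104 probe sets, 20.2%, and at most -1 for 7, 6.73%. The low side outside the block was therefore the fuller one, and inside the block the high side. For 94 of the 560 and 38 of the 294 a signal below the floor left the value as a bound, and for 3 and 1 of them both signals of a temperature were below the floor, which leaves no value. Inside the block 2 of the 7 and 1 of the 21 were bounds, and 1 of the 7 had no value for the same reason. All 4 signals lay above 17.9, the highest signal of bacterial control transcripts absent from the sample, for 407 of the 560 and 210 of the 294. With the floor at the 50th percentile of signals, 37.8, the counts outside the block were 281 at most -1 and 110 at least 1.

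Where a light response passed 1 in size, it mostly did so at 16 °C alone. Over all 13539 probe sets outside the block the response was also wider at 16 °C, with an SD of 0.47 against 0.33 at 22 °C. Of the 560 probe sets at or below -1, 300 had a response past 1 in size at 16 °C alone, 38 at 22 °C alone, 5 at both in opposite directions, and 217 at neither. Of the 294 at or above 1, 92 passed it at 16 °C alone, 34 at 22 °C alone, 3 at both in opposite directions, 2 at both in the same direction and 163 at neither. The responses of the 2 temperatures had opposite signs for 446 of the 560 and for 249 of the 294, which selection on their difference favours. The median response of the 560 was -1.05 at 16 °C and 0.31 at 22 °C, and that of the 294 was 0.82 at 16 °C and -0.45 at 22 °C.

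**Figure D1:**
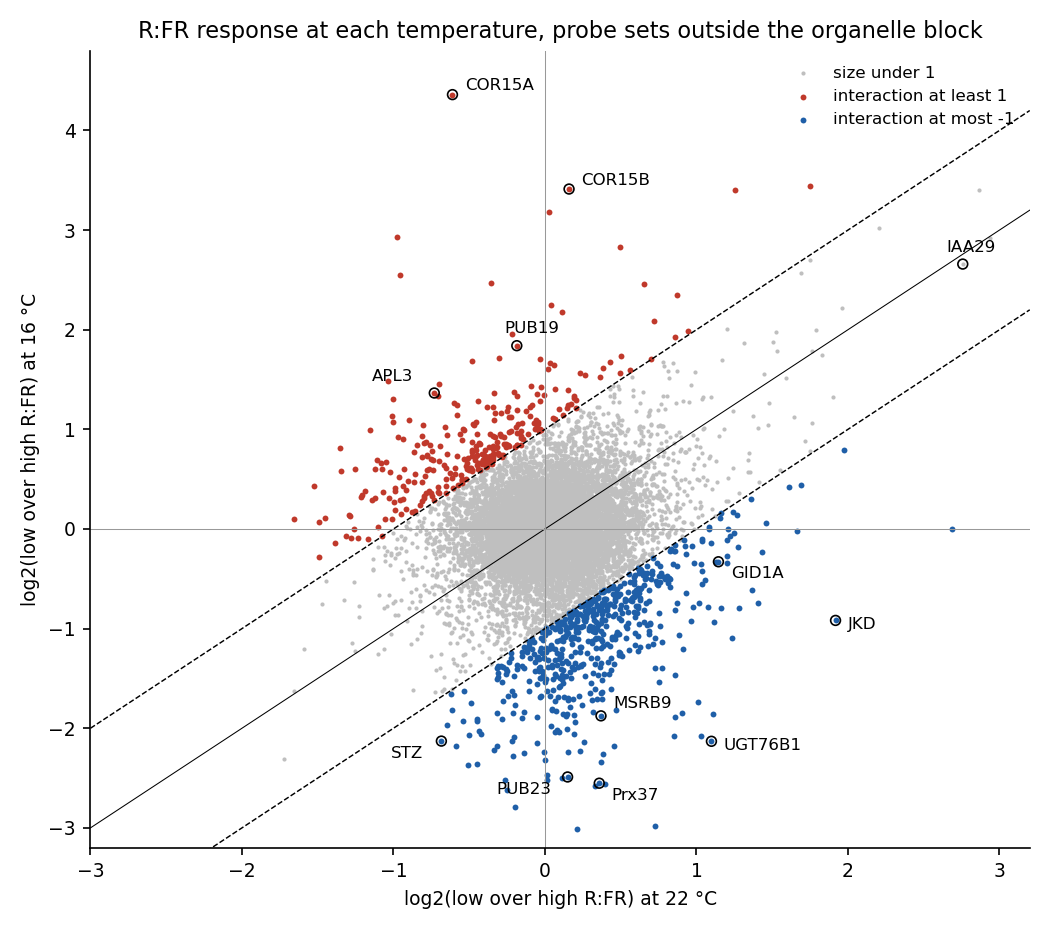
The log2 ratio of low over high R:FR at 16 °C (vertical) against that at 22 °C (horizontal) for the 13539 measured probe sets outside the organelle block, each a point, with signals below the floor set to it. The solid line marks equal responses and the dashed lines an interaction of 1 and -1, and the blue points at or below -1 (560) outnumber the red ones at or above 1 (294).

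The 16 °C low R:FR array held the lowest of the 4 signals for 475 of the 560 probe sets, and for 207 it lay at least 2-fold below all 3 others. The 22 °C high R:FR array held the lowest for 80. By its definition, an interaction at or below -1 favours a lowest signal on either of these arrays, so the counts partly follow from the selection. Over all 13539 probe sets the 16 °C low R:FR array was the lowest for 29.8%, the 16 °C high R:FR array for 27.7%, the 22 °C low R:FR array for 24.4% and the 22 °C high R:FR array for 18.1%. Of the 294 the lowest signal lay on the 16 °C high R:FR array for 188 and on the 22 °C low R:FR array for 102, and the highest on the 16 °C low R:FR array for 166. Here too the definition of the interaction favours these arrays. The mean log2 ratio of 3' to 5' signal over 6 pairs of plant control probe sets, a measure of RNA and label quality, also differed between arrays. It was 0.54 in low and 0.82 in high R:FR at 16 °C, against 0.64 in low and 0.73 in high R:FR at 22 °C, an interaction of -0.19. The part of single arrays and of RNA quality in the counts was not tested.

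Dim probe sets passed a size of 1 more often than bright ones. In the dimmest of 5 equal bins of mean signal, with mean signals of 23.2 to 41.1, 6.43% were at least 1 and 8.12% at most -1, and the SD of the interaction was 0.72. In the brightest bin, above 243, the shares were 0.406% and 1.77% and the SD was 0.37. The low side exceeded the high side in all 5 bins.

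**Figure D2:**
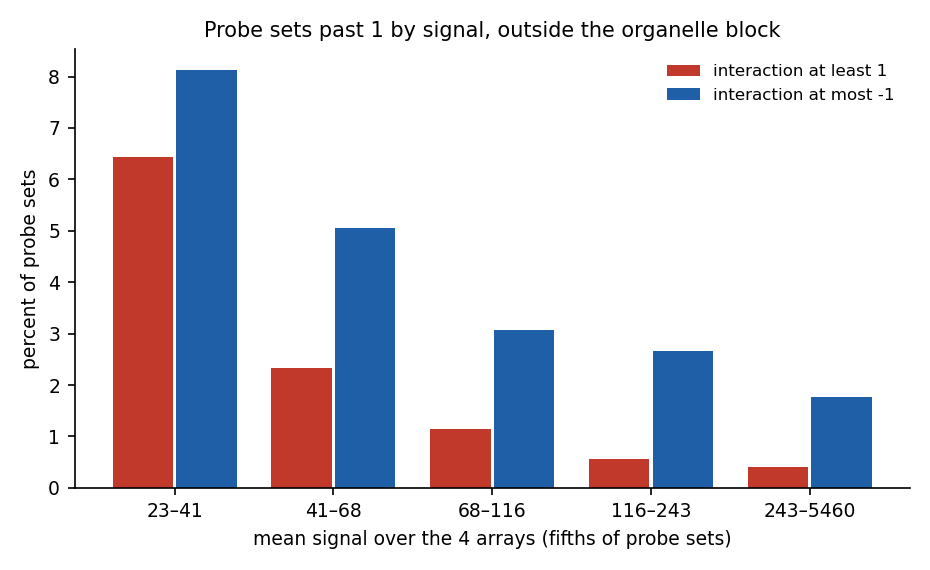
Percent of probe sets outside the organelle block with an interaction of at least 1 (red) or at most -1 (blue), in 5 equal bins of mean signal over the 4 arrays, dimmest at the left. Both shares are lower in each brighter bin, and the blue bar is the taller one in each.

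The annotation named few of these probe sets. Of the 10 highest interactions outside the block, between 2.21 and 4.97, 2 had a gene symbol, COR15A and COR15B, and of the 10 lowest, between -3.71 and -2.91, another 2, UGT76B1 and Prx37. Among the 1004 measured probe sets outside the block with a symbol, 22 were at least 1, 2.19%, and 45 at most -1, 4.48%, close to the shares of all probe sets. Gene groups were read from 20 lists and 28 families of symbols, of which 33 had at least 3 measured members. Counts and medians of the groups below stand against those background shares and against the median of 0.00. The lists and families were chosen with earlier results of these data known, so these counts and medians are a description only. Some genes belong to more than 1 group and are counted in each.

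**Figure D3:**
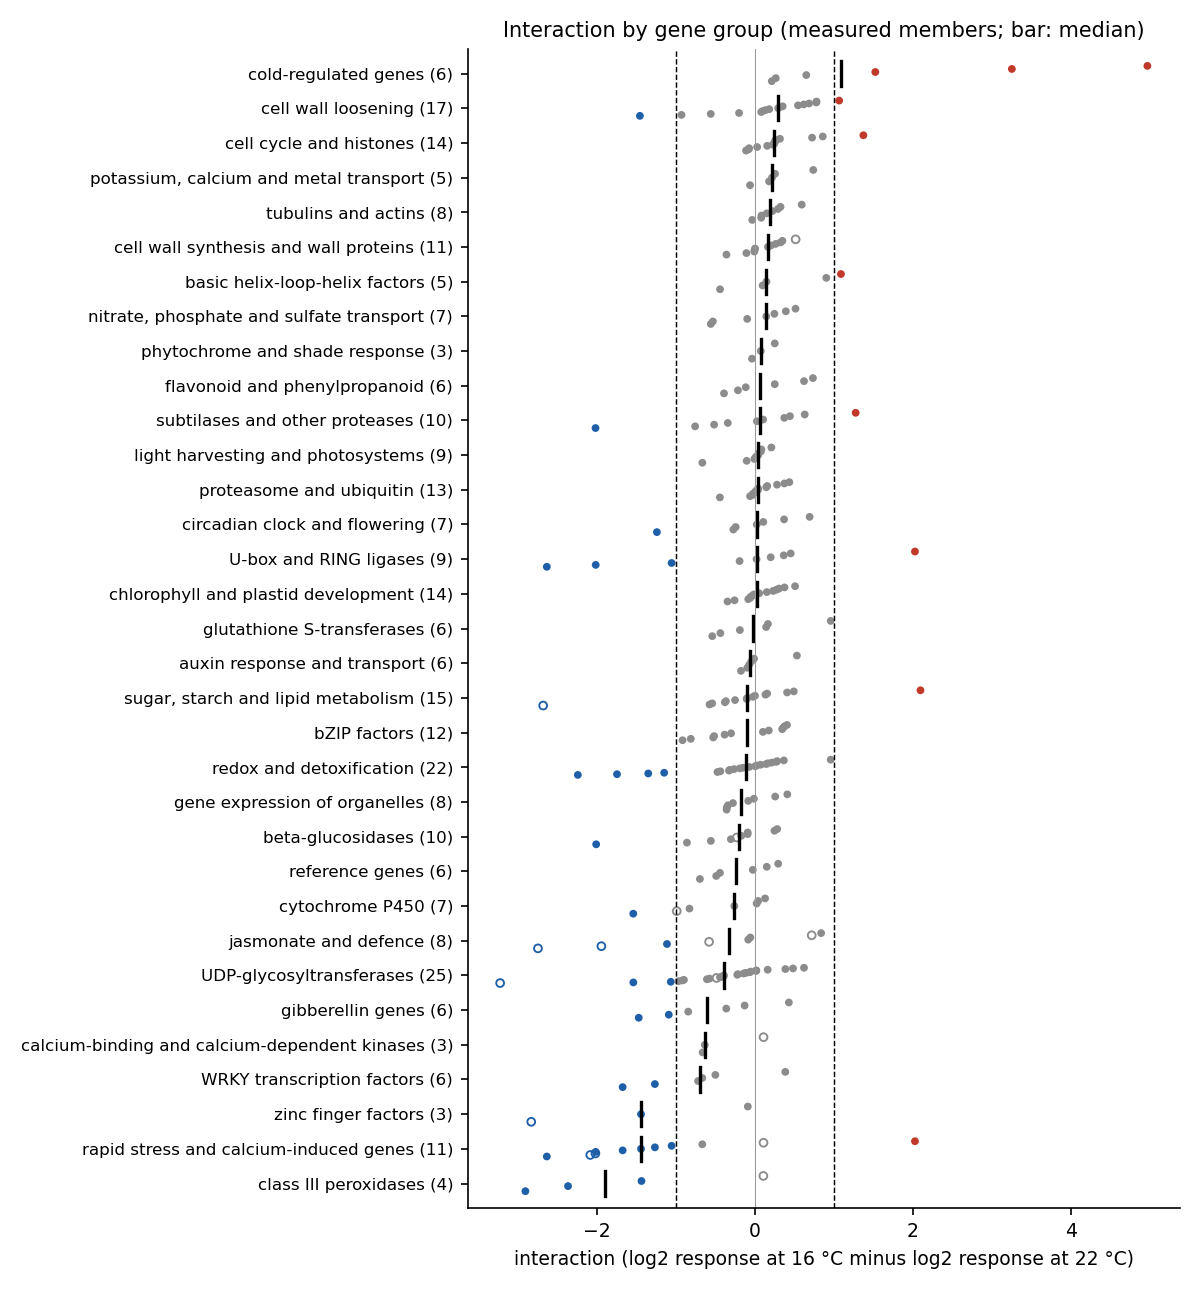
Interaction (log2, horizontal) of each measured member of the 33 gene lists and families with at least 3 measured members, with the number measured in parentheses and the median as a black bar. Red and blue points lie past 1 and -1 (dashed lines), and open points had a signal below the floor. The groups run from class III peroxidases at the bottom, with a median of -1.90, to cold-regulated genes at the top, with 1.09.

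Cold-regulated genes had the highest median of the groups, 1.09, with 6 of 48 listed genes measured, 3 of them at least 1 and none below 0. COR15A and COR15B, neighbouring paralogs that encode chloroplast proteins known to protect membranes during freezing, led it. COR15A had signals of 314 in low and 15.3 in high R:FR at 16 °C, against 18.8 in low and 28.7 in high R:FR at 22 °C, an interaction of 4.97, and COR15B of 588 in low and 55.2 in high R:FR at 16 °C, against 26.8 in low and 24 in high R:FR at 22 °C, an interaction of 3.25. Both were high on the 16 °C low R:FR array and several-fold lower on the other 3. For COR15A those 3 signals lay near the floor and near the 17.9 of the absent control transcripts, and with the higher floor its interaction was 3.05. Cross-hybridization between the paralogs was not tested.

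The dehydrins, hydrophilic proteins of cold and drought, came next. LTI30 had signals of 85.4 in low and 41.2 in high R:FR at 16 °C, against 26.9 in low and 37.3 in high R:FR at 22 °C, an interaction of 1.52. Its signal was highest in low R:FR at 16 °C and its responses had opposite signs. COR47, the brightest dehydrin gene of the list, had 616 in low and 349 in high R:FR at 16 °C, against 581 in low and 516 in high R:FR at 22 °C, an interaction of 0.65, with its lowest signal in high R:FR at 16 °C. The smallest values were those of FRO1, a subunit of mitochondrial complex I whose mutant is sensitive to frost (0.26), and of COR27, a small protein that links cold to the clock (0.21). COR27 had 95.9 in low and 76.5 in high R:FR at 16 °C, against 32.8 in low and 30.3 in high R:FR at 22 °C, higher at 16 than at 22 °C with a small difference between the light conditions of each. The response of the list had a median of 0.94 at 16 °C and 0.02 at 22 °C.

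**Figure D4:**
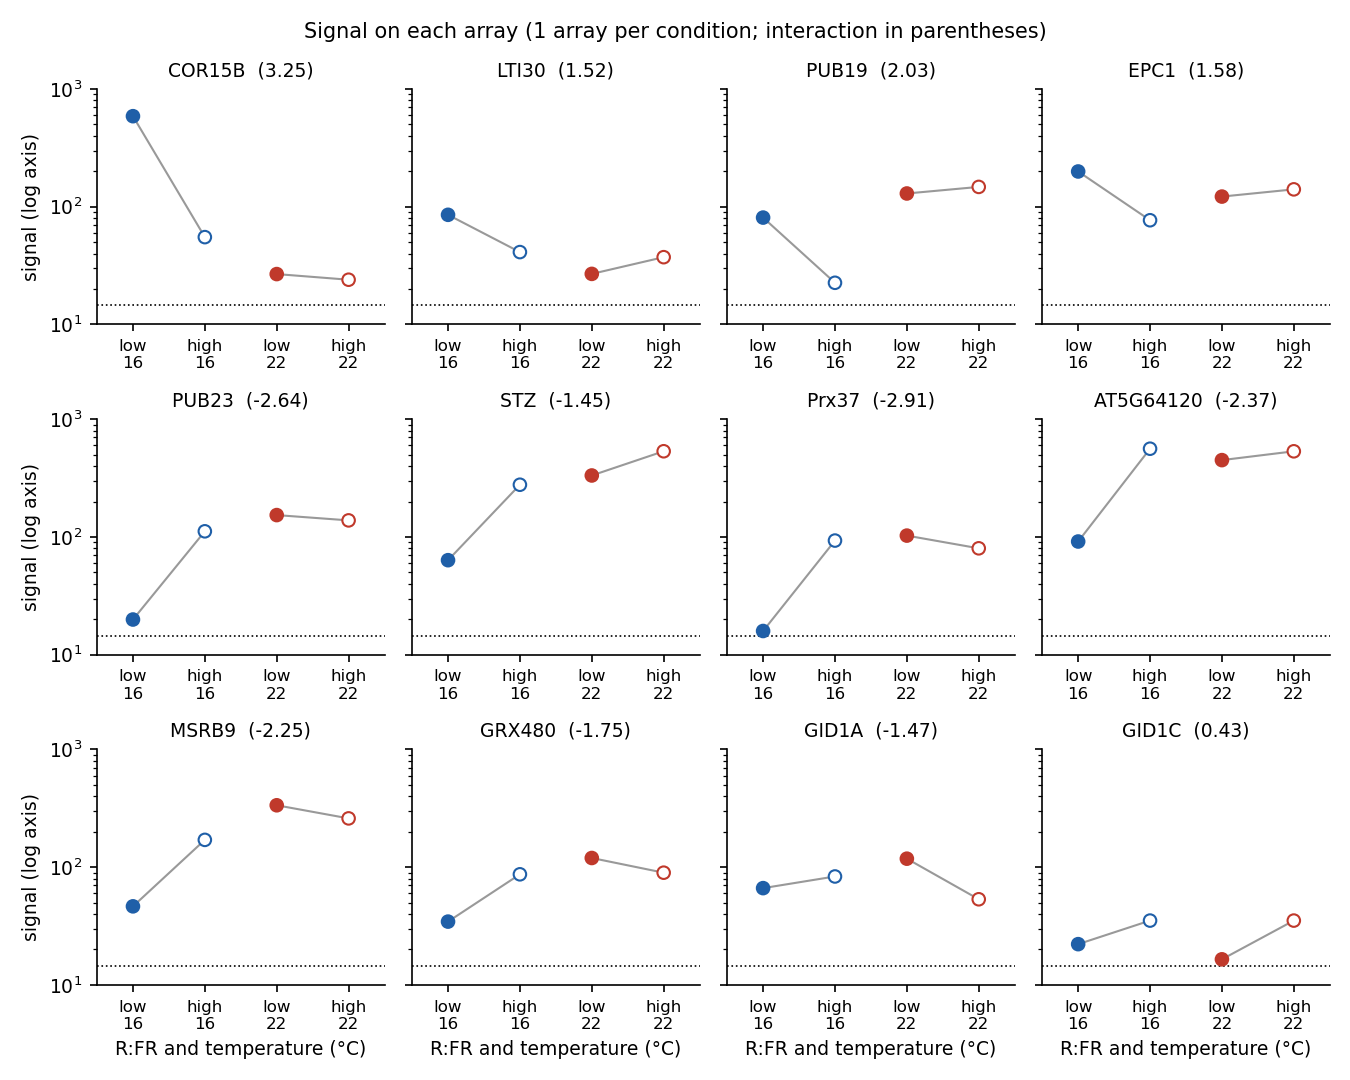
Signal on each of the 4 arrays (log axis) for 12 genes, low R:FR filled and high R:FR open, 16 °C in blue and 22 °C in red, with the floor as a dotted line and the interaction in parentheses. COR15B and LTI30 are highest in low R:FR at 16 °C, whereas PUB23, STZ, Prx37, AT5G64120, MSRB9 and GRX480 are lowest there.

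Rapid stress and calcium-induced genes stood toward the other end, on a list chosen with earlier results of these data known. Of 63 listed genes 11 were measured, 8 of them at most -1 and 1 at least 1, and the median was -1.45. With the floor at the 50th percentile 4 were at most -1 and the median was -0.75. The median response was -1.58 at 16 °C and 0.12 at 22 °C. The plant U-box ubiquitin ligases PUB22, PUB23 and PUB24, which restrain immune signalling, were all in the lower part. PUB23 had signals of 19.9 in low and 112 in high R:FR at 16 °C, against 153 in low and 138 in high R:FR at 22 °C, an interaction of -2.64, or -1.71 with the higher floor. PUB22 had 21.7 in low and 68 in high R:FR at 16 °C, against 77.6 in low and 60 in high R:FR at 22 °C, an interaction of -2.02, or -1.22 with the higher floor. For both, the 16 °C low R:FR array was more than 2-fold below the other 3, which lay close together. PUB24 had 30.5 in low and 55 in high R:FR at 16 °C, against 90.6 in low and 78.5 in high R:FR at 22 °C, an interaction of -1.06, or -0.75 with the higher floor, with all 16 °C signals below those of 22 °C.

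The ligase PUB19, which dampens abscisic acid and drought responses, went the other way. Its signals were 80.9 in low and 22.6 in high R:FR at 16 °C, against 129.6 in low and 147 in high R:FR at 22 °C, an interaction of 2.03, or 1.28 with the higher floor. Here the 16 °C high R:FR array was the low one, so that within 1 family of ligases the interaction took both signs. Over the 9 measured U-box and RING ligases 3 were at most -1 and 1 was at least 1, with a median of 0.02. Those past 1 in size, PUB22, PUB23, PUB24 and PUB19, are the same genes as in the stress list.

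Transcription factors of the stress list were lower at 16 °C in low R:FR as well. STZ, a zinc finger repressor also known as ZAT10, had 63.5 in low and 278 in high R:FR at 16 °C, against 333 in low and 534 in high R:FR at 22 °C, an interaction of -1.45. Its signal was lower in low R:FR at both temperatures, by more at 16 °C (-2.13) than at 22 °C (-0.68). WRKY6 had 20.2 in low and 60.2 in high R:FR at 16 °C, against 112 in low and 105 in high R:FR at 22 °C, an interaction of -1.68, or -0.77 with the higher floor. WRKY53 had 35.8 in low and 90.4 in high R:FR at 16 °C, against 107 in low and 112 in high R:FR at 22 °C, an interaction of -1.27. Both WRKY genes encode factors of senescence and defence, and for both the 16 °C low R:FR array was more than 2-fold below the others. The 6 measured WRKY genes had a median of -0.70, with 2 at most -1, none at least 1 and 5 below 0. WRKY6, WRKY53 and WRKY22 are counted both here and in the stress list. WRKY22, of the immune MAP kinase pathway, was at -0.67, and WRKY20 was the one above 0, at 0.38. For CW14 and ZCF37, 2 more members of the list, the low R:FR signal at 16 °C lay below the floor, so that the interaction was at most -2.09 and -2.02, and -0.71 and -0.64 with the higher floor. The calmodulin-like gene CML38 was at or below 0.11 on signals of 2.9 (low) and 25.1 (high) at 16 °C and 22.1 (low) and 41.2 (high) at 22 °C, with both responses below 0.

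Class III peroxidases, secreted enzymes that act on hydrogen peroxide and phenolics in the cell wall, had the lowest median, -1.90 over 4 measured genes, 3 of them at most -1. The median was -1.34 with the higher floor and -1.08 with no filter. Prx37 had signals of 15.9 in low and 93.2 in high R:FR at 16 °C, against 103 in low and 80.1 in high R:FR at 22 °C, an interaction of -2.91, or -1.66 with the higher floor. AT5G64120, which RefSeq also lists as PRX71, had 91.5 in low and 562 in high R:FR at 16 °C, against 449.5 in low and 534 in high R:FR at 22 °C, an interaction of -2.37 with either floor. PRX52, a peroxidase of lignin formation, had 28.4 in low and 61.1 in high R:FR at 16 °C, against 167 in low and 133 in high R:FR at 22 °C, an interaction of -1.44. In all of these the lowest signal was in low R:FR at 16 °C, and for AT5G64120 the other 3 signals lay close together. The fourth, AT2G41480, was at or below 0.10 on dim signals.

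Of 22 measured redox and detoxification genes 4 were at most -1 and none at least 1, with a median of -0.11. MSRB9, a methionine sulfoxide reductase that repairs oxidised proteins, had 46.5 in low and 171 in high R:FR at 16 °C, against 336 in low and 259.7 in high R:FR at 22 °C, an interaction of -2.25. GRX480, a glutaredoxin that binds TGA transcription factors, had 34.5 in low and 87 in high R:FR at 16 °C, against 119.7 in low and 89.8 in high R:FR at 22 °C, an interaction of -1.75. ATMDAR2, a monodehydroascorbate reductase of the ascorbate cycle, had 118 in low and 232 in high R:FR at 16 °C, against 364 in low and 324 in high R:FR at 22 °C, an interaction of -1.15. All 3 were lowest in low R:FR at 16 °C and highest in low R:FR at 22 °C. GRXC1, a glutaredoxin of another class, was highest in high R:FR at 16 °C. Its signals were 37.2 (low) and 66.7 (high) at 16 °C and 46.6 (low) and 32.7 (high) at 22 °C, and its interaction was -1.35. The other 18 lay between -0.48 (NDB2) and 0.96 (GSTU20, a glutathione S-transferase).

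UDP-glycosyltransferases attach sugars to hormones and other small molecules, and 19 of the 25 measured lay below 0, 3 of them at most -1 and none at least 1, with a median of -0.39. The median was 0 with no filter, and 1 of the 19, UGT73B5, has no value because both 16 °C signals were below the floor. UGT76B1, which glucosylates isoleucic acid and salicylic acid, had signals of 7.5 in low and 63.5 in high R:FR at 16 °C, against 78.4 in low and 36.6 in high R:FR at 22 °C. The first of these lay below the floor, which bounds the interaction at most -3.23, and it was -1.80 with the higher floor. Its response passed 1 in both directions, at most -2.13 at 16 °C and 1.099 at 22 °C. UGT72E1, which acts on lignin precursors, had 49.3 in low and 106 in high R:FR at 16 °C, against 166 in low and 122 in high R:FR at 22 °C, an interaction of -1.54. UGT85A2 had 28.2 in low and 42 in high R:FR at 16 °C, against 106 in low and 75.4 in high R:FR at 22 °C, an interaction of -1.07, or -0.64 with the higher floor. These 3 were lowest in low R:FR at 16 °C and highest in low R:FR at 22 °C. The beta-glucosidases had 1 of 10 measured genes at or below -1 and a median of -0.20. That gene was BGLU46, active on lignin precursor glucosides, with 15.6 in low and 48.6 in high R:FR at 16 °C, against 120.1 in low and 92.7 in high R:FR at 22 °C and an interaction of -2.01, or -0.74 with the higher floor.

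Jasmonate and defence genes were mixed. Of 8 measured genes 3 were at most -1 and none at least 1, with a median of -0.33, or -0.07 with the higher floor. OSM34, an osmotin-like protein, had 12.1 in low and 52.2 in high R:FR at 16 °C, against 571 in low and 306 in high R:FR at 22 °C, which bounds the interaction at most -2.75, or -1.37 with the higher floor. JRG21, an oxygenase that inactivates jasmonate, had 6.2 in low and 45.4 in high R:FR at 16 °C, against 513 in low and 416 in high R:FR at 22 °C, an interaction of at most -1.95, or -0.56 with the higher floor. Both were several-fold brighter on the 22 °C arrays than on either array of 16 °C. PDF1.4, a defensin-like gene, had 58.9 (low) and 104 (high) at 16 °C and 269.8 (low) and 220 (high) at 22 °C, an interaction of -1.12, or -0.97 with a pseudocount in place of a floor. Of the rest of the list THI2.2 was at 0.84, PDF1.2 at most 0.72 and PDF1.2b at most -0.58. LCR68 and LCR69 were at -0.09 and -0.06. BIK1, a kinase that works below immune receptors, was outside the list and had 109 (low) and 168 (high) at 16 °C and 239.7 (low) and 157 (high) at 22 °C, an interaction of -1.24.

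The root marker PYK10, a beta-glucosidase gene of roots and hypocotyls, varied with these groups. It had 1083 in low and 2024 in high R:FR at 16 °C, against 2834 in low and 2913 in high R:FR at 22 °C, an interaction of -0.86, so that it too was lowest in low R:FR at 16 °C. The 8 symbols listed as root markers gave 2 genes with a named probe set, and EXPA7, of root hairs, was at 15.8 or less on all arrays. RCA, the Rubisco activase of green tissue, was the one named of 12 markers for mesophyll and had 4149 in low and 4327 in high R:FR at 16 °C, against 3872 in low and 4169.5 in high R:FR at 22 °C, with an interaction of 0.05. The guard cell lineage markers SPCH and FMA, measured of 6 listed, were at 0.41 and -0.02. The 6 measured reference genes ranged from -0.70 to 0.29, with a median of -0.24. The part of tissue makeup in the lower groups was not tested.

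Gibberellin genes had 6 of 41 listed measured, with 2 at most -1, none at least 1 and a median of -0.61. The 3 receptors differed. GID1A had signals of 66.4 in low and 83.4 in high R:FR at 16 °C, against 118 in low and 53.4 in high R:FR at 22 °C, an interaction of -1.47, and GID1B of 25.5 in low and 36.8 in high R:FR at 16 °C, against 54.4 in low and 36.8 in high R:FR at 22 °C, an interaction of -1.09, or -0.53 with the higher floor. Both were highest in low R:FR at 22 °C, the array on which GID1C was lowest. GID1C had 22.2 in low and 35.2 in high R:FR at 16 °C, against 16.5 in low and 35.2 in high R:FR at 22 °C, an interaction of 0.43, with responses below 0 at both temperatures. SLY1, the F-box protein that removes DELLA repressors, had 44 in low and 78 in high R:FR at 16 °C, against 82.1 in low and 80.9 in high R:FR at 22 °C, an interaction of -0.85, with only the low R:FR signal of 16 °C apart. SEC and SPY, which put sugars on DELLA proteins, were at -0.36 and -0.13.

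Shade and auxin genes had no member past 1 in size, but few of them were measured. Against shares outside the block of 2.17% at least 1 and 4.14% at most -1, few would be past 1 here. The 3 measured of 46 listed phytochrome and shade genes had a median of 0.07. HAT2, a homeodomain factor induced by shade, had 106 in low and 72.2 in high R:FR at 16 °C, against 128 in low and 85.2 in high R:FR at 22 °C, an interaction of -0.04. SPT, a growth-restraining bHLH factor, was at 0.25 and HYH, a bZIP factor of light signalling, at 0.07. Of the auxin genes 6 of 113 listed were measured, with a median of -0.06. YUC2, an auxin synthesis enzyme, was at -0.07 and GH3.17, which conjugates auxin, at -0.05. IAA29, a repressor of auxin signalling chosen here for its responses, had 180 in low and 28.5 in high R:FR at 16 °C, against 135 in low and 19.9 in high R:FR at 22 °C. These are responses of 2.66 at 16 °C and 2.76 at 22 °C, so a large response to low R:FR went with an interaction of -0.10.

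In 3 groups of growth genes most members lay above 0, where the median over all probe sets outside the block was 0.00. The medians of these groups were smaller than the SD of the spiked controls, 0.36. That of the reference genes was -0.24. Of 17 measured cell wall loosening genes 13 were above 0, 1 at least 1 and 1 at most -1, with a median of 0.29. The 2 past 1 were both expansin-like genes and had opposite signs. EXLA3 had 35 in low and 22.3 in high R:FR at 16 °C, against 18 in low and 24 in high R:FR at 22 °C, an interaction of 1.07, and EXLA2 had 19.3 in low and 24.3 in high R:FR at 16 °C, against 45.2 in low and 20.7 in high R:FR at 22 °C, an interaction of -1.46. Neither passed 1 with the higher floor. The 14 measured cell cycle and histone genes had a median of 0.24, with 11 above 0 and 1 at least 1. That one was ASF1B, a histone chaperone of dividing cells, with 60.4 in low and 44.7 in high R:FR at 16 °C, against 33.2 in low and 63.6 in high R:FR at 22 °C and an interaction of 1.37. Its signal was lowest in low R:FR at 22 °C. Of 8 measured tubulin and actin genes 7 were above 0, with a median of 0.18 and a highest value of 0.59. Scaling the arrays to the same median instead gave these 3 groups medians of 0.35, 0.30 and 0.24.

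In the groups of photosynthesis no member passed 1 in size. Outside the block 2.17% of probe sets were at least 1 and 4.14% at most -1, so groups this small would hold few. The 9 nuclear light harvesting and photosystem genes had a median of 0.04, or -0.08 after quantile normalization, and the 14 chlorophyll and plastid development genes one of 0.02. The 8 measured genes of organelle gene expression had a median of -0.18, with 6 below 0 and none past 1. In the clock and flowering list 1 of 7 measured genes passed 1. This was XCT, a protein of the clock, with 41.2 (low) and 53.4 (high) at 16 °C and 63.4 (low) and 34.7 (high) at 22 °C and an interaction of -1.24, or -0.95 with the pseudocount. Among 15 sugar, starch and lipid genes APL3, a large subunit of the enzyme that makes ADP-glucose for starch, had 44.3 in low and 17.2 in high R:FR at 16 °C, against 17.3 in low and 28.7 in high R:FR at 22 °C, an interaction of 2.095, or 0.23 with the higher floor. ICL, isocitrate lyase of the glyoxylate cycle, was below the floor at 16 °C in both light conditions and has no value.

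Further named genes were at or above 1. EPC1, a glycosyltransferase of cell adhesion, had 199 in low and 76.8 in high R:FR at 16 °C, against 122 in low and 140.5 in high R:FR at 22 °C, an interaction of 1.58 with either floor, and was lowest in high R:FR at 16 °C. GH9B8, of the cellulase family, had 98.7 in low and 33.4 in high R:FR at 16 °C, against 40.8 in low and 34.8 in high R:FR at 22 °C, an interaction of 1.33, and was highest in low R:FR at 16 °C. RR16, a response regulator of cytokinin signalling, was low on another array. It had 44.9 in low and 42.9 in high R:FR at 16 °C, against 13.1 in low and 40.7 in high R:FR at 22 °C, an interaction of at least 1.55, or 0.17 with the higher floor. CHR18, a chromatin remodeller (1.43), OSB1, a mitochondrial DNA-binding protein (1.16), and ATZW10 (1.48) were likewise lowest in low R:FR at 22 °C, and with the higher floor they were at 0.40, 0.38 and 0.47. ATPC2, a chloroplast ATP synthase subunit, was at 1.40, or 0.69 with the higher floor, and highest in high R:FR at 22 °C. TET2 was at 1.12, BUG22 at 1.14 and bHLH34 at 1.09, all unchanged by the higher floor and under 1 with the pseudocount, at 0.91, 0.98 and 0.97. SCPL27 was at 1.27, INH3 at 1.29, PME61 at 1.04 and TBL28 at 1.03, and with the higher floor they were at 0.99, 0.23, 0.02 and 0.70.

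Other named genes at or below -1 included SBT3.5, a subtilase, with 23.9 in low and 94.2 in high R:FR at 16 °C, against 89.6 in low and 87 in high R:FR at 22 °C and an interaction of -2.02. YLS5 had 122 in low and 286 in high R:FR at 16 °C, against 342 in low and 292 in high R:FR at 22 °C, an interaction of -1.46, and the lectin gene JAL33 119 in low and 271 in high R:FR at 16 °C, against 444 in low and 489 in high R:FR at 22 °C, an interaction of -1.05. In these 3 the 16 °C low R:FR array was more than 2-fold below each of the others, and JAL33 was at -0.96 with the pseudocount. JKD, a zinc finger factor of root patterning, differed in that its low signals were in high R:FR at 22 °C and low R:FR at 16 °C. It had 15.3 in low and 28.9 in high R:FR at 16 °C, against 54.8 in low and 8.7 in high R:FR at 22 °C, which bounds the interaction at most -2.84, or -0.54 with the higher floor. ALN, allantoinase of purine breakdown, was at -1.41 and NANA, a chloroplast protease, at -1.48, both unchanged by the higher floor. CYP71B23 was at -1.54, or -1.02 with the higher floor, and PS1, a presenilin, at -1.09, or -0.95 with the pseudocount. With the higher floor the other 5 fell short of -1. These were MAG2 (at most -1.51, then -0.15), SUFE2 (at most -1.201, then -0.08), ATSYTF (-1.102, then -0.82), tny (-1.09, then -0.31) and TET5 (at most -1.82, then -0.10). Of the 40 genes named outside the block with a value at or below -1, 21 stayed past it under other scalings, floors and a pseudocount, and of the 21 at or above 1, 7 did.

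The organelle block was not purely organelle-encoded by the annotation used here. Of its 104 measured probe sets 68 matched genes of the chloroplast chromosome, 7 matched chromosome 2, 5 had a gene name with no chromosome in RefSeq and 24 had no single gene. The chloroplast chromosome encodes core subunits of both photosystems, the cytochrome b6f complex, the ATP synthase and the NDH complex, along with part of the plastid's ribosome and its RNA polymerase, and many of its genes are transcribed together.

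Chloroplast transcripts had interactions of both sizes and a median near 0. Of the 68, 16 were at least 1, 23.5%, and 3 at most -1, 4.41%, with a median of 0.07 and an SD of 1.03. All 16 were lowest on the 16 °C high R:FR array, and the responses of none had opposite signs. Of the 16, 9 had a response past 1 at 16 °C alone and 7 at both temperatures in the same direction, so the sign of the response was shared and its size was larger at 16 °C. Over all 68 the SD of the response was 1.21 at 16 °C and 0.51 at 22 °C. For 14 of the 16 all signals lay above 17.9, and the exceptions were petD and ndhE, whose high R:FR signals at 16 °C did not exceed that of the absent controls. Over all 68 the 16 °C high R:FR array was the lowest for 53, 77.9%, against 27.7% of probe sets outside the block. This array also had the highest mean log2 ratio of 3' to 5' signal of the 4, 0.82. The part of this single array and of its RNA quality in the chloroplast values was not tested.

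These values went with the level of signal. In the 34 dimmer of the 68, split at a mean signal of 565, the median was 0.96, with 16 at least 1 and 3 at most -1. In the 34 brighter the median was -0.06, none passed 1, and the range was -0.78 to 0.50. Spearman's rho between interaction and mean signal was -0.37 over the 68 probe sets, which share the same 4 arrays, and is given as a description.

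By complex, the cytochrome b6f genes had the highest median, 1.15, with 3 of 6 at least 1. petN, a small subunit, had signals of 187 in low and 19.6 in high R:FR at 16 °C, against 75.4 in low and 51.2 in high R:FR at 22 °C, an interaction of 2.69, or 1.75 with the higher floor, and petD, subunit IV, of 154 in low and 17 in high R:FR at 16 °C, against 45.5 in low and 23.6 in high R:FR at 22 °C, an interaction of 2.24, or 1.76 with the higher floor. Both were low in high R:FR at 16 °C and highest in low R:FR at 16 °C. petG was at 1.32 and petL at 0.98, whereas the bright petA, cytochrome f, at 0.09 and petB, cytochrome b6, at -0.09 had similar signals on all arrays. petB had 2904 (low) and 2883 (high) at 16 °C and 3288 (low) and 3058 (high) at 22 °C.

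The NDH complex, which returns electrons to the plastoquinone pool in cyclic flow, had 4 of 9 genes at least 1 and a median of 0.23. ndhE had 229.5 in low and 17.4 in high R:FR at 16 °C, against 119 in low and 58.7 in high R:FR at 22 °C, an interaction of 2.70, or 1.58 with the higher floor, and ndhG had 298 in low and 24.2 in high R:FR at 16 °C, against 113 in low and 46.7 in high R:FR at 22 °C, an interaction of 2.34. ndhJ was at 2.07 and ndhD at 1.32, and the others ran from -0.44 (ndhK) to 0.23 (ndhC). In the 7 photosystem I genes 2 were at least 1. The assembly factor gene ycf3 had 473 in low and 33 in high R:FR at 16 °C, against 218 in low and 94.6 in high R:FR at 22 °C, an interaction of 2.63, and psaC, which binds iron-sulphur clusters, was at 1.202. The reaction centre genes psaA and psaB were at 0.20 and -0.12.

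Photosystem II genes were mostly below 0, with a median of -0.18 and 2 of 15 at least 1. The 2 were psbT (1.63) and psbN (1.64), neighbours on opposite strands near psbB (0.82). psbK, a small subunit, was the lowest at -0.78, with 954 in low and 938 in high R:FR at 16 °C, against 2139 in low and 1225 in high R:FR at 22 °C. It was highest in low R:FR at 22 °C, and its responses were 0.02 at 16 °C and 0.80 at 22 °C. The ATP synthase genes took both signs within 1 cluster. atpI was at 1.57 and atpF at -1.09. atpF had 172 in low and 117 in high R:FR at 16 °C, against 524 in low and 168 in high R:FR at 22 °C, with its highest signal in low R:FR at 22 °C.

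In the plastid's gene expression machinery, the RNA polymerase subunit gene rpoB had 183 in low and 23.2 in high R:FR at 16 °C, against 58.2 in low and 37.3 in high R:FR at 22 °C, an interaction of 2.34. Of the other subunits rpoC1 was at 0.03, rpoC2 at -0.78 and rpoA at 0.15. Of 15 ribosomal protein genes 2 were at least 1 and 1 at most -1, with a median of 0.01. rps14 had 224 in low and 21.2 in high R:FR at 16 °C, against 46.6 in low and 30.6 in high R:FR at 22 °C, an interaction of 2.80, rpl20 was at 2.12, and rpl14 had 182 in low and 217 in high R:FR at 16 °C, against 312 in low and 142 in high R:FR at 22 °C, an interaction of -1.39. rbcL, the large subunit of Rubisco, was the lowest chloroplast value at -1.62. Its signals of 54.9 (low) and 71.3 (high) at 16 °C and 319 (low) and 135 (high) at 22 °C were dim for an abundant transcript, and the highest was again in low R:FR at 22 °C. accD, of fatty acid synthesis, was at 1.07.

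High values were neighbours in places, in the order of the measured genes. Along the chloroplast chromosome ndhD, psaC, ndhE and ndhG followed each other and all 4 were at least 1, and the next measured gene, ndhI, was at -0.23. rpoB and petN were neighbours at 2.34 and 2.69, and the next, psbM, on bright signals of 3068 to 3725, was at 0.29. In the psbB cluster, psbT, psbN and petD were at least 1, while psbH (-0.16) and petB (-0.09) between them were near 0. Between rps14 (2.80) and ycf3 (2.63) lay psaB and psaA, which were bright and near 0.

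**Figure D5:**
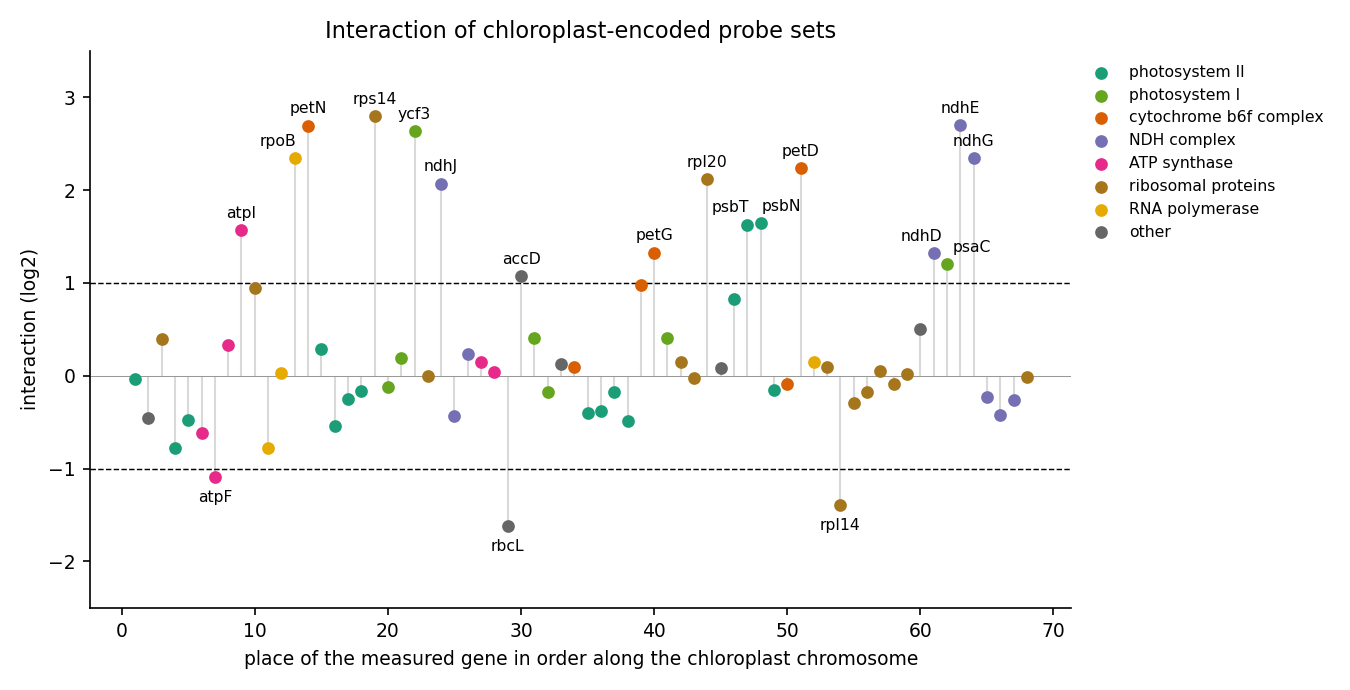
Interaction (log2, vertical) of the 68 measured chloroplast-encoded probe sets, placed in their order along the chloroplast chromosome and coloured by complex, with dashed lines at 1 and -1. The 16 genes at or above 1 and the 3 at or below -1 are named, and the run from ndhD to ndhG holds 4 neighbouring genes above 1.

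The rest of the block also held values past 1, on both sides. Of the 5 with a name and no chromosome, which carry names of mitochondrial genes, 2 were at least 1 and 1 at most -1. ccb452 had 48.6 in low and 29.5 in high R:FR at 16 °C, against 54.6 in low and 69 in high R:FR at 22 °C, an interaction of 1.06, and orfX 32.3 in low and 10.6 in high R:FR at 16 °C, against 33.3 in low and 36.5 in high R:FR at 22 °C, an interaction of at least 1.29. nad4, a subunit of mitochondrial complex I, had 9 in low and 24.9 in high R:FR at 16 °C, against 57.9 in low and 47.2 in high R:FR at 22 °C, an interaction of at most -1.07, or -0.29 with the higher floor, and was dimmer on both 16 °C arrays. ccb206 was at 0.19 and ccb382 at -0.13. The 7 of chromosome 2 ran from at most -1.35 (AT2G26390, or 0 with the higher floor) to 0.25 (AT2G26600), with a median of -0.05. They included AR781 at -0.87 and YAB5, a factor of leaf polarity, at -0.05. Of the 24 without a single gene 3 were at least 1 and 2 at most -1, with a median of -0.01. For 1 of these 2 both 22 °C signals lay below the floor, so that it has no value.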

How the data were processed

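Expression was measured on Affymetrix arrays, with 1 array per condition. The authors deposited 1 MAS5 signal for each probe set, an intensity on a linear scale, where MAS5 is named per the submitters' processing notes. The settings of MAS5 were not given in the sources used here. RNA was extracted with a column kit and phenol, per the labels' protocols. No batch or scan date is given.

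From these values the floor of 14.5 was the 30th percentile of all signals, and log2 was taken after the floor. The filter of 23.2 was the 40th percentile of the mean log2 signal of probe sets that were no controls, turned back into a signal. Both were computed from the deposited table. Around the filter the nearest probe sets inside had mean signals of 23.2009, 23.2025 and 23.2033 and interactions of -1.77, 0.77 and -0.09, and those outside 23.1903, 23.1919 and 23.1976 and interactions of 0.15, -0.37 and 0.20. A value is given as a bound, "at most" or "at least", where 1 signal lay below the floor. Bacterial control transcripts absent from the sample (27 probe sets) had a median signal of 2.2, and 2 of their values reached the floor. Of the 22746 probe sets 13513 had 1 gene in the platform annotation, 13436 of them matched RefSeq (TAIR10.1), 503 with several genes were left unnamed, and the other 8730 had no gene in the table used here. Coordinates are left out, since the files name no genome build.

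The 20 lists (1661 entries) and 28 families were matched by symbol or synonym, and false matches were removed by hand. The members, lists, families and rules were chosen with earlier results of these data known. Named were the 15 highest and 15 lowest interactions outside the block among probe sets with a symbol whose brightest signal reached the median of all signals, 37.8, and the 8 highest and 8 lowest with a gene inside it. List members past 1 in size (at most 6 a group) were named too, otherwise the 2 nearest the group median, and all measured members of the shade, cold and gibberellin lists and of the tissue markers. Other chloroplast genes and single list members were named after their values were seen. Alternatives were scaling to the same median, quantile normalization, floors at the 10th and 50th percentile, adding the floor as a pseudocount, other filters, leaving out shared probe sets, the mean over a gene's probe sets, and a 3-fold size. The computation was tested on simulated data. Python 3.11.15, numpy 2.4.6, pandas 2.3.3, scipy 1.17.1 and matplotlib 3.10.9 were used.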

Additional observations from a re-analysis of the deposited data

Results flagged for a closer look

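One named gene had responses past 1 in size in opposite directions at the 2 temperatures. The log2 response of UGT76B1 was at most -2.13 at 16 °C and 1.099 at 22 °C, so that it was lower in low R:FR at 16 °C and higher in low R:FR at 22 °C. Its interaction was at most -3.23, and the difference between the temperatures was not tested. Its low R:FR signal of 16 °C, 7.5, lay below the floor of 14.5, and with the floor at the 50th percentile the interaction was -1.80. Outside the organelle block 8 measured probe sets in all, 5 with an interaction of at most -1 and 3 with one of at least 1, had responses past 1 in opposite directions.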

How the results depend on the processing

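The counts outside the organelle block depended on the floor and the size rule. At least 1 were 110 probe sets with a floor at the 50th percentile, 119 with the pseudocount instead, 479 with no filter and 57 at 3-fold, and at most -1 were 281, 336 and 161 with that floor, the pseudocount and the 3-fold size. Scaling to the same median gave 356 and 509. In the block 12 were at least 1 at 3-fold, and at most -1 were 3 with the higher floor, 4 with the pseudocount and 1 at 3-fold. The rapid stress median was -0.75 with the higher floor. That of zinc finger factors was -0.54 with it and -2.14 with a filter on the brightest signal. That of class III peroxidases was -1.34 with it and -1.08 with no filter, and that of UDP-glycosyltransferases was 0 with no filter, which adds probe sets at the floor on all arrays. Of all alternative values, those above included, 25 of 36 counts of probe sets, 491 of 528 counts of group members, 291 of 297 group medians and 837 of 916 values of single genes moved by less than 1.5 times (counts) or by less than the SD of the spiked controls, 0.36 (medians and genes), and none that was past 1 changed sign. Outside the block 58 of the 294 and 207 of the 560 stayed past 1 in size under both other scalings, both other floors and the pseudocount, and inside it 13 of the 21 and 3 of the 7. No paired analysis was possible because each condition has 1 array and the labels give no replicate numbers. No array could be left out, since the interaction needs all 4, and the planned search for promoter motifs was not run because no promoter sequences were at hand.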
